A study of Mus musculus with 21 samples.

Results

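Complement and coagulation genes encode plasma proteins that are made largely by the hepatocyte, and 35 of them were followed across 21 mouse RNA-seq libraries. They were taken by gene name, 16 of complement and 19 of coagulation, and each matched 1 row of 34280 genes in the thioacetamide (TAA) table and 1 row of 54532 genes in the carbon tetrachloride (CCl4) and hepatocyte tables. Hc is the mouse name of complement C5. The list was drawn up with earlier results of these data known, and it was given no test of its own.

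Complement is a cascade of plasma proteases and scaffold proteins. The classical, lectin and alternative routes each form an enzyme that cuts C3, C3 products lead to the cutting of C5, and C5b then joins C6, C7, C8 and C9 into a membrane pore. Coagulation is a second cascade, in which vitamin K dependent proteases lead to thrombin, thrombin turns fibrinogen into fibrin, and plasmin dissolves it. Hepatocytes secrete most components of both, and several of them, fibrinogen and C3 among them, are known acute phase proteins.

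The series holds 7 groups of 3 libraries, and by its title it concerns the adaptor STING, the NLRP3 inflammasome and hepatocyte pyroptosis in liver fibrosis. Whole liver came from wild-type mice given intraperitoneal oil, from wild-type mice given the hepatotoxin CCl4, and from mice labelled Sting knockout given CCl4. Oil and CCl4 lasted 6 weeks by the labels, and CCl4 lasted 8 weeks by the design text. Whole liver also came after 8 weeks of TAA, a hepatotoxin used to cause fibrosis, from wild-type mice and from mice with a hepatocyte-specific Nlrp3 deletion. The driver of that deletion, the Sting allele and the age, sex and strain of the mice are not given in the sources used here. Primary murine wild-type hepatocytes were given lipopolysaccharide (LPS, 1 µg/mL) for 6 h and nigericin (10 µM), an ionophore that activates NLRP3, for 30 min, without or with the NLRP3 inhibitor MCC950 (10 µM) 2 h before. All hepatocyte libraries therefore carry LPS and nigericin, and all libraries of the TAA comparison carry TAA. Livers labelled Sting knockout that had oil, livers of either genotype without TAA, and hepatocytes without LPS were not analysed here. The labels do not state whether the replicates of a group are different animals or culture dishes, and each p-value reflects the scatter of these libraries alone, which may be technical.

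Depth was 32096879 to 45900668 counts per wild-type TAA library and 52200285 to 68913793 per deletion library. It was 14353483 to 16684832 recovered reads per library of the CCl4 table. Hepatocyte libraries had 14883711 to 15705568 recovered reads without and 16799327 to 17157586 with MCC950. Depth thus divided the groups of the TAA and MCC950 comparisons completely, and its part in their results was not tested. Sting1, listed as Tmem173, was at 6.10, 5.15 and 4.74 FPKM in wild-type CCl4 liver and at 3.42, 1.98 and 5.28 FPKM in the libraries labelled Sting knockout (means 5.33 and 3.56 FPKM, exact two-sided permutation p = 0.3, where 0.1 is the smallest that 3 against 3 can give). Nlrp3 was at 0.143 and 0.233 FPKM in wild-type and deletion livers after TAA (exact permutation p = 0.4), so neither check showed the named loss in whole liver. Mitochondrial genes held 27.8 to 34.6% of counts in wild-type TAA libraries and 5.63 to 12.5% in deletion libraries. Replicate 1 of the deletion libraries stood apart (r = 0.924 and 0.880 with the others of its group, which had r = 0.973 with each other, over log2 FPKM across genes). Replicate 2 of the libraries labelled Sting knockout did likewise (r = 0.937 and 0.914, against 0.973). Results that rest on these libraries are given with and without them.

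Promoter sequences are shown for the 3 fibrinogen genes, which lie side by side on chromosome 3 and whose levels are described together, and for Mbl2, C8g and F9, which changed most among the other genes that passed a test and have an entry in the promoter table. Each runs 5′ to 3′ on the gene's strand and ends at the base before the first transcribed base, from RefSeq on GRCm38.p6, the build also called mm10. For Fga the transcript of the deposited table starts earlier than that of RefSeq, so 173 bases are shown, and 250 for the others. Capitals mark matches to 4 motifs searched on both strands, whose letters are GTTAAT (a partial site of the hepatocyte factor HNF1), TTGCNNAA (C/EBP), CTGGGAA (the interleukin-6 response element) and CAAAGTCC (HNF4).
Fga: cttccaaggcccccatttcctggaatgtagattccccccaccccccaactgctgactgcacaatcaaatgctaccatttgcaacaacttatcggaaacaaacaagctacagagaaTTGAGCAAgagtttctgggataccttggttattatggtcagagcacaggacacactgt
Fgb: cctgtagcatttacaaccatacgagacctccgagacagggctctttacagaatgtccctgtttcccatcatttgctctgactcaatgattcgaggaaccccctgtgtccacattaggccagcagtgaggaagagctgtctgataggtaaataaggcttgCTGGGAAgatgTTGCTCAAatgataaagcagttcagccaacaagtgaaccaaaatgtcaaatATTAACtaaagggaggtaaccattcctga
Fgg: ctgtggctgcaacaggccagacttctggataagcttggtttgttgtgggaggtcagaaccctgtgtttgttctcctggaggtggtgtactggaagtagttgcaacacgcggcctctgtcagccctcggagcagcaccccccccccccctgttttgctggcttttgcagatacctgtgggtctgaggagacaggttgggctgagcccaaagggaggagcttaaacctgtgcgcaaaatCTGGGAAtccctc
Mbl2: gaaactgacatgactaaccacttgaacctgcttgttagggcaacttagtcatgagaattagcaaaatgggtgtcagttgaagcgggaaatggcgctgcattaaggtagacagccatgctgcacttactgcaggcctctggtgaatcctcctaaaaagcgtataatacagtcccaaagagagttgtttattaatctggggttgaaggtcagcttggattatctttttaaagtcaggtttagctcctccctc
C8g: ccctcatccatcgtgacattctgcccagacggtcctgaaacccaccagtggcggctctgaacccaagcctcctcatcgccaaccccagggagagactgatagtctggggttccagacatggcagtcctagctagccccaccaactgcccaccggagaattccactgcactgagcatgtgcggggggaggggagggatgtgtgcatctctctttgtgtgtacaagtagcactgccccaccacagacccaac
F9: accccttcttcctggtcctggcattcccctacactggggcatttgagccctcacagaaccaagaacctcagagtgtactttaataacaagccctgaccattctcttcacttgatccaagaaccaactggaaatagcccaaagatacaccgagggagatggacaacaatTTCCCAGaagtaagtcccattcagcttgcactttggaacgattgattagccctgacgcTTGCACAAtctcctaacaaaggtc
Fga is at chr3:83025903-83026075 on the plus strand, Fgb at chr3:83049864-83050113 on the minus strand and Fgg at chr3:83007474-83007723 on the plus strand. Mbl2 is at chr19:30232678-30232927 on the plus strand, C8g at chr2:25501720-25501969 on the minus strand and F9 at chrX:59999214-59999463 on the plus strand. The stretch of Fgb holds an interleukin-6 match, a C/EBP match shortly after it, and the HNF1 letters on the other strand. Fgg holds 1 interleukin-6 match, close to the start, and Fga 1 C/EBP match on the other strand. F9 holds a C/EBP match and, on the other strand, an interleukin-6 match, while none of the 4 letter strings stands in these windows of Mbl2 and C8g.

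An entry in that table was found for 27 of the 35 genes, as 28 windows of 250 bases. Of these 28 windows 7 held the HNF1 letters, against 6.43% of 32851 windows in all. The C/EBP letters stood in 7 (9.56% of all windows), the interleukin-6 letters in 5 (9.1%) and the HNF4 letters in 0 (1.2%). Among the windows with the HNF1 letters were those of Hc, C7, C8a, C8b, F13b, Fga and Fgb, the Fga match lying past the stretch printed. These are matches of letters, and no binding was measured.

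In oil-treated liver the fibrinogen chains and C3 were the most abundant of the 35 genes per unit of gene length. Fgg, the gamma chain, was at 2139 ± 615 FPKM (fragments scaled by gene length and library size, mean ± SD, n = 3), Fga, the alpha chain, at 1736 ± 322 and Fgb, the beta chain, at 1400 ± 321 FPKM. C3, on which all complement routes meet, was at 1545 ± 183 FPKM, between Fga and Fgb, and these neighbours did not differ beyond their spread. Next came Kng1, the kininogen of the contact system, at 736 ± 151 FPKM, and Plg, the precursor of plasmin, at 647 ± 67.8 FPKM. At the low end C7 was at 1.28 ± 0.29 FPKM and Cfb, factor B of the alternative route, at 2.05 ± 0.36 FPKM.

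The hepatocytes had nearly the same leading genes, with Fga at 1138 ± 66.6, Fgb at 955 ± 94.6, Fgg at 918 ± 68.8 and C3 at 891 ± 5.77 FPKM under LPS and nigericin alone. C7 was listed at 0 in all 6 hepatocyte libraries, and Cfb was at 0.846 ± 0.157 FPKM. In wild-type TAA liver the order differed. C3 led at 407 ± 23.1 FPKM, then Kng1 at 324 ± 40.2 FPKM, and Fgb, Fgg and Fga were at 125 ± 20.4, 93.6 ± 19.3 and 68.0 ± 14.7 FPKM. Cfb was not at the low end of this table, at 89.4 ± 8.24 FPKM and rank 9 of the 35. The 3 tables were normalized separately, so a level is compared only within its table.

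Some values rest on exons that 2 genes share. By the GENCODE M21 annotation 79.5% of the exon bases of Cfb are also exon bases of Gm20547 on the same strand. C2 shares 42.8% with the same gene, Klkb1 43.2% with Gm45753, and Masp2 54.9%, Serpinc1 34.4% and Plg 11.3% with a gene on the opposite strand. C4b and Kng1 have near-identical neighbours in C4a and Kng2. Values of these genes are uncertain to that extent.

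**Figure D1:**
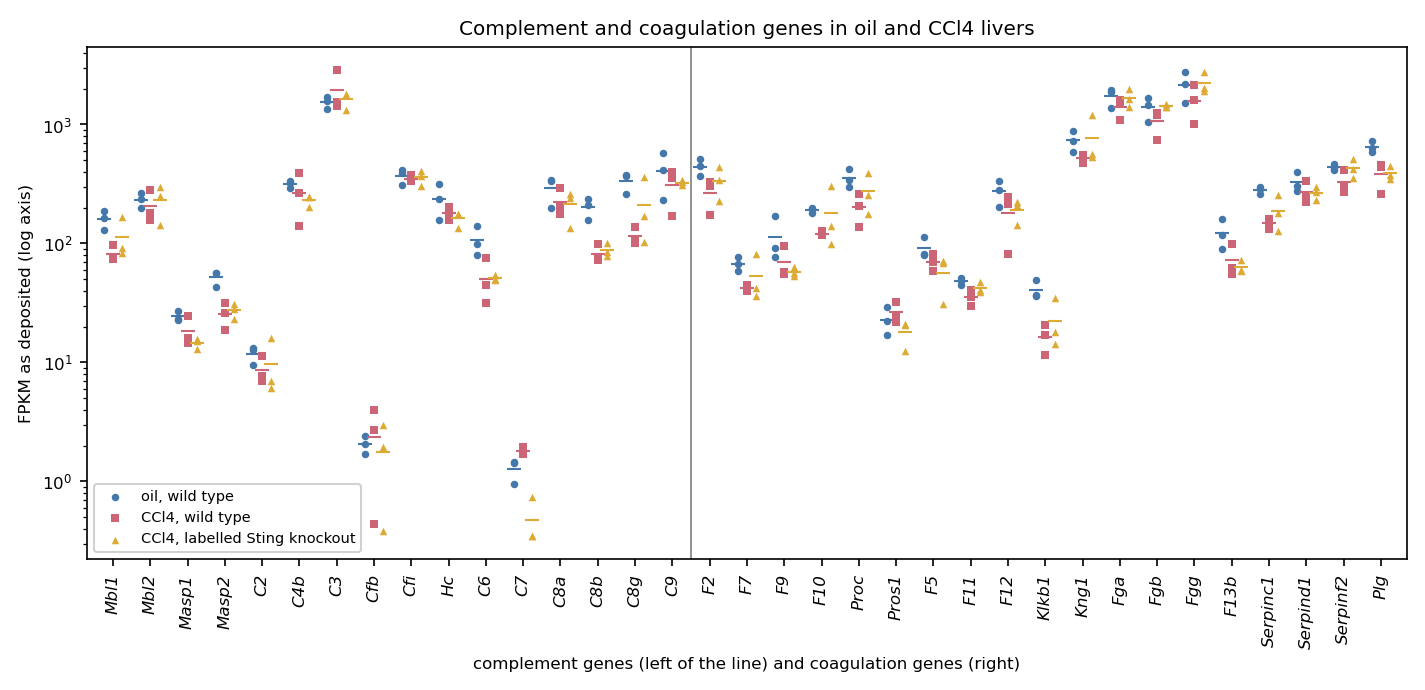
FPKM as deposited (log axis) of the 16 complement and 19 coagulation genes in each of the 9 libraries of the CCl4 table, with bars for the group means of 3 libraries. C8b, C8g, Masp2 and Klkb1 are lower in every wild-type CCl4 library than in any oil library, whereas C3, Cfi and the fibrinogen chains overlap.

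The first comparison, of CCl4 with oil in wild-type liver, addresses the effect of the toxin on these genes. Expression was 2.03- to 2.90-fold lower for a few genes, while the groups overlapped for C3 and fibrinogen, the most abundant of the 35: C8b and C8g of the terminal pore, Masp2 of the lectin route and Klkb1, plasma prekallikrein, fell, and no gene of the 35 rose. These 4 are 11.4% of the 35, all of which were tested, while limma called 6.15% of 11511 genes lower and 9.19% higher (adjusted p under 0.05, Benjamini-Hochberg over all genes tested). Of the complement genes 3 of 16 fell and of the coagulation genes 1 of 19. The fold change was negative for 32 of the 35, with a median of −0.44 on the log2(FPKM + 1) scale, beside −0.08 over all genes tested. It was −0.39 for the complement and −0.65 for the coagulation genes. Oil and CCl4 libraries did not overlap for 15 lower genes and 1 higher gene of the 35, that is 42.9% and 2.86%, against 21.4% and 16.6% of all genes tested. In bulk liver, fewer hepatocytes and less RNA per hepatocyte cannot be told apart.

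In the terminal pathway C8g, the small lipocalin-like chain of C8, was at 260, 367 and 377 FPKM with oil and at 104, 137 and 102 FPKM with CCl4. Its highest CCl4 value lay below its lowest oil value, and it fell by 1.54 ± 0.43 (SE) on the log2 scale, 2.90-fold (limma adjusted p = 0.0355). C8b, the beta chain, was at 157, 237 and 210 FPKM with oil and at 74.6, 99.0 and 72.0 FPKM with CCl4, again without overlap. It fell by 1.28 ± 0.28, 2.43-fold (limma adjusted p = 0.0118). C8a, the alpha chain and the neighbour of C8b on chromosome 4, was at 200, 339 and 338 FPKM with oil and at 176, 293 and 205 FPKM with CCl4. Its groups overlapped and its fold change of −0.37 ± 0.37 did not pass (limma adjusted p = 0.580).

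C6, the first protein to join C5b, was at 106 ± 29.7 FPKM with oil and 50.6 ± 22.4 FPKM with CCl4, without overlap, and just missed the threshold (limma adjusted p = 0.0525). C9, which polymerises into the pore, was at 410 ± 174 and 309 ± 121 FPKM, and Hc at 234 ± 78.6 and 179 ± 22.9 FPKM, both with overlap. C7 went against the others, at 1.42, 0.943 and 1.47 FPKM with oil and 1.69, 1.80 and 1.93 FPKM with CCl4. It was the 1 gene whose CCl4 libraries all lay above the oil libraries, and it did not pass (limma adjusted p = 0.338).

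On the lectin route, Masp2, the protease that cuts C4 and C2, was at 56.1, 56.2 and 43.2 FPKM with oil and at 31.4, 26.0 and 18.8 FPKM with CCl4. The groups did not overlap, and it fell by 1.02 ± 0.26, 2.03-fold (limma adjusted p = 0.0254). Mbl1, a mannose-binding lectin that brings the protease to a surface, was at 161 ± 29.2 and 81.6 ± 13.4 FPKM and did not pass (limma adjusted p = 0.0718), whereas with the replicate number as a block it was called lower (limma adjusted p = 0.0301). Its paralogue Mbl2 overlapped between the groups, at 232 ± 32.9 and 207 ± 67.0 FPKM. Masp1, C2 and C4b had fold changes of −0.41, −0.41 and −0.38, none of which passed. C3 was at 1349, 1575 and 1711 FPKM with oil and at 2852, 1439 and 1530 FPKM with CCl4, so that 1 CCl4 library held the highest value while the others lay within the oil range. Cfb overlapped too, at 2.05 ± 0.36 and 2.37 ± 1.79 FPKM. Cfi, the protease that inactivates C3b, was nearly level, at 371 ± 55.6 and 348 ± 21.5 FPKM.

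Of the contact system Klkb1, which activates factor XII and frees bradykinin, was at 36.0, 37.2 and 49.4 FPKM with oil and at 11.6, 16.9 and 20.6 FPKM with CCl4. The groups did not overlap, and it fell by 1.29 ± 0.34, 2.45-fold (limma adjusted p = 0.0288). F11, its neighbour on chromosome 8 and a closely related protease, was at 48.0 ± 3.34 and 35.3 ± 5.39 FPKM, without overlap but not past the threshold (limma adjusted p = 0.251). Kng1 and F12, factor XII, had fold changes of −0.47 and −0.73.

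The vitamin K dependent group had a median fold change of −0.65. F2, prothrombin, was at 441 ± 70.1 FPKM with oil and 268 ± 83.4 FPKM with CCl4. F7 of the extrinsic route was at 67.8 ± 8.61 and 42.5 ± 2.79 FPKM, its neighbour F10 at 192 ± 9.77 and 121 ± 6.02 FPKM, and the anticoagulant protease Proc at 355 ± 63.9 and 202 ± 62.3 FPKM. None of these 4 overlapped and none passed (limma adjusted p from 0.167 to 0.299). F9 overlapped, at 113 ± 49.9 and 69.7 ± 22.1 FPKM, and so did F5, factor V, the cofactor of F10, at 91.5 ± 18.2 and 70.3 ± 11.3 FPKM. Pros1, the cofactor of activated protein C, had a fold change of 0.20, 1 of the 3 positive values with those of C3 and C7.

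The fibrinogen chains overlapped between oil and CCl4. Fga was at 1366, 1954 and 1889 FPKM with oil and 1090, 1549 and 1600 FPKM with CCl4. Fgb was at 1051, 1467 and 1683 FPKM with oil and 744, 1209 and 1238 FPKM with CCl4, and Fgg at 1510, 2168 and 2739 and at 1017, 1604 and 2136 FPKM. In both groups replicate 1 was the lowest library for all 3 chains. Their fold changes of −0.30, −0.41 and −0.45 did not pass. F13b, the carrier chain of factor XIII, which crosslinks fibrin, overlapped at 123 ± 35.9 and 72.0 ± 23.4 FPKM (limma adjusted p = 0.137).

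Among the inhibitors Serpinc1, antithrombin, was at 259, 286 and 297 FPKM with oil and at 161, 152 and 132 FPKM with CCl4, without overlap (limma adjusted p = 0.0691). Serpinf2, the plasmin inhibitor, was at 435 ± 25.6 and 331 ± 73.9 FPKM and Serpind1, heparin cofactor II, at 326 ± 65.7 and 270 ± 55.3 FPKM. Plg was at 647 ± 67.8 and 385 ± 108 FPKM (limma adjusted p = 0.126). All 6 libraries given CCl4, those labelled Sting knockout included, lay below all 3 oil libraries for Masp2, C6, C8b, Klkb1, Serpinc1 and Plg, and for no gene of the 35 did all 6 lie above. The same count was not made over all genes, so it is not read as particular to the 35.

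Summed, the 35 genes came to 11210 to 15498 FPKM with oil and 10575 to 10810 FPKM with CCl4. As a share of the FPKM of all genes they were 2.496 to 2.74% with oil and 3.05 to 3.31% with CCl4, so the sum was lower and the share higher. Markers of other cells moved with this comparison: 8 of 8 recruited macrophage markers rose, with a summed level of 131 to 171 FPKM with oil and 726 to 1231 FPKM with CCl4. Of the stellate cell and myofibroblast markers 7 of 10 rose (51.0 to 65.9 and 225 to 460 FPKM). Of 13 hepatocyte markers 1 was called lower, Apoa2, and the 13 summed to 69010 to 85317 and 52341 to 64376 FPKM. Their fold change was negative for 11 of the 13, with a median of −0.57, and groups did not overlap for 8 lower and 0 higher markers. The lower levels were thus not particular to the 35. Of pericentral hepatocyte markers 4 of the 5 tested fell (3682 to 5694 and 305 to 862 FPKM), and of periportal markers 3 of 6 (2129 to 2593 and 780 to 1788 FPKM). The neutrophil markers tested rose, 4 of 4, and mitochondrial genes held 5.40 to 9.16% of recovered reads with oil and 3.42 to 5.36% with CCl4. No marker of these lists was at 0 in every library of a group, and the part of cell makeup, zonation or the mitochondrial share in the falls was not tested.

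**Figure D2:**
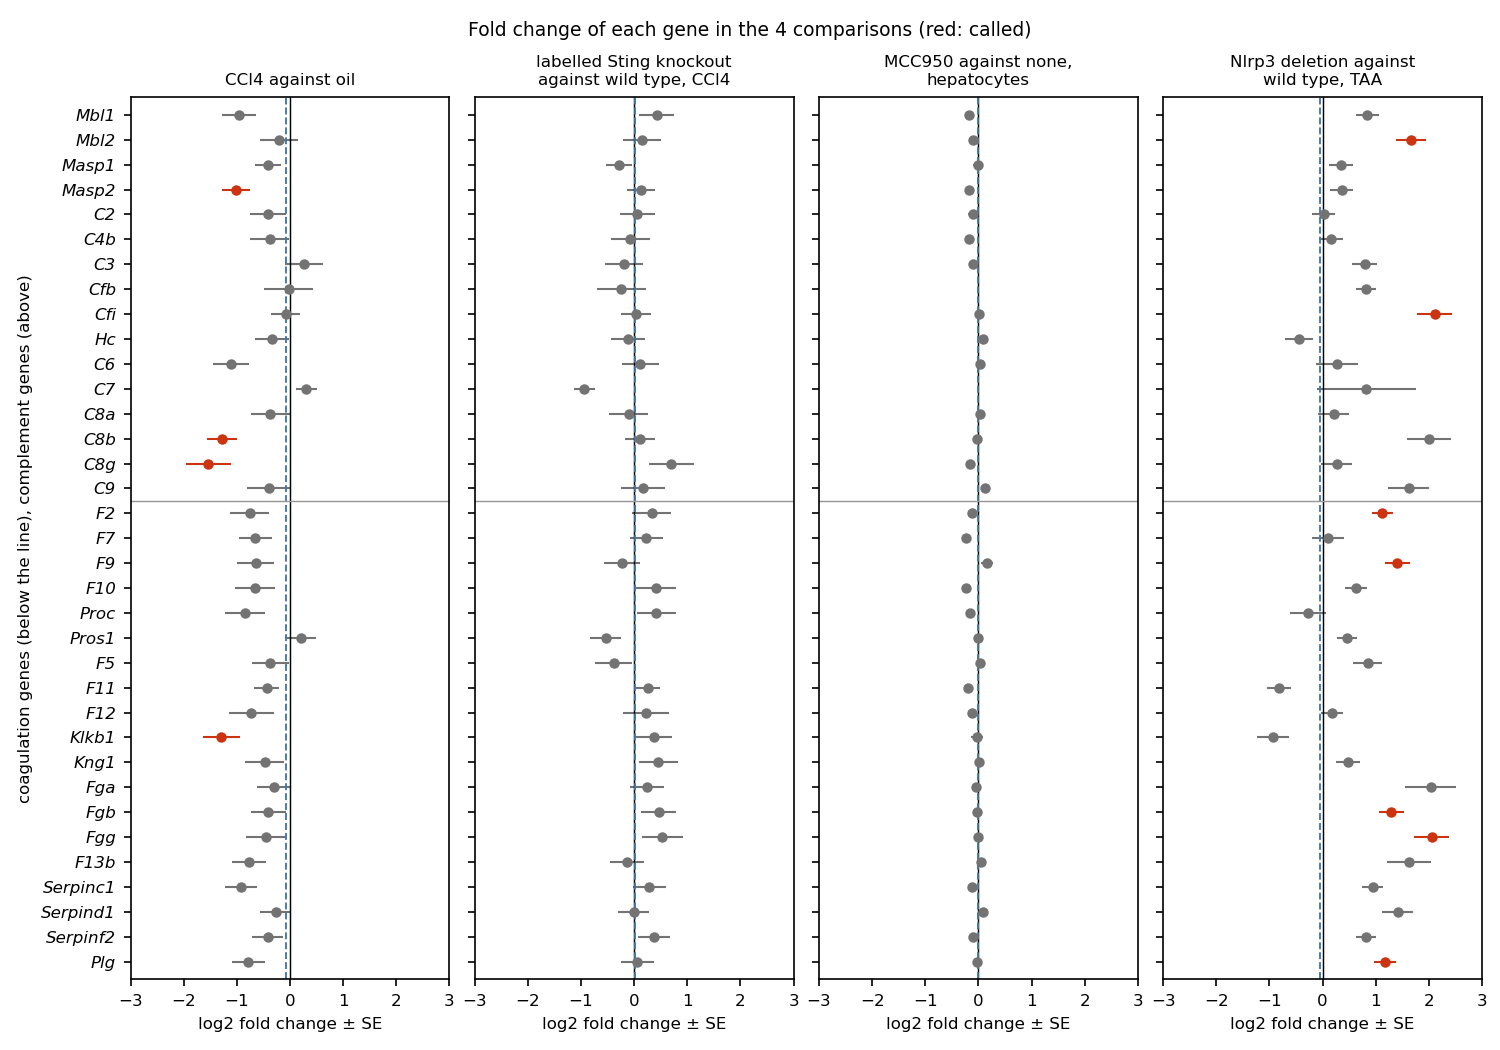
Log2 fold change with its standard error for each gene in the 4 comparisons, on log2(FPKM + 1) from limma in the first 3 panels and from edgeR on counts in the panel for Nlrp3. Red points passed an adjusted p of 0.05 and the dashed line is the median of all genes tested; 32 of 35 points are negative for CCl4 and 31 of 35 positive for the Nlrp3 deletion.

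The 4 calls depended on single libraries. Without CCl4 replicate 1, 2 or 3 limma called 2 genes lower each time, without oil replicate 1 or 3 it called 1, and without oil replicate 2 it called 0. Over all genes these fits called 262 to 580 lower, against 708 with all libraries. C8b kept its call in 14 of 16 alternatives tried (adjusted p up to 0.0689), Masp2 in 12, Klkb1 in 10 and C8g in 9 (adjusted p up to 0.119). DESeq2 on the recovered reads called 8 lower, as did limma once labelled Sting knockout replicate 2 was dropped from the model, and C6, Mbl1 and Serpinc1 were added to the 4 in both. Calls over all genes rose as well, to 1101 lower of 26880 with DESeq2 and 1198 lower of 11499 without that library.

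Other complement and coagulation genes, from lists of 32 and 39, did not share the direction of the 35. Of 27 other complement genes tested 6 rose and 3 fell. Those with the largest rise on the log2(FPKM + 1) scale were receptors and integrins of leukocytes and a C1q chain: C3ar1, the C3a receptor (1.18 ± 0.32 to 10.7 ± 1.74 FPKM), Itgb2 (4.30 ± 0.39 to 28.9 ± 11.96 FPKM), C5ar1, the C5a receptor (0.593 ± 0.174 to 7.24 ± 1.55 FPKM), and C1qb (61.5 ± 12.9 to 232 ± 113 FPKM). Among those that fell were Cfd, factor D (3.39 ± 0.93 to 0.0194 ± 0.0337 FPKM), and Cd59a. Of 31 other coagulation genes tested 10 rose and 0 fell, and on the log2(FPKM + 1) scale, which understates low genes, the largest rises were those of Anxa2, a plasminogen receptor (4.20 ± 0.59 to 33.7 ± 12.2 FPKM), Fgl2, a fibrinogen-like protein, Thbd, which encodes thrombomodulin (1.57 ± 0.13 to 8.84 ± 1.48 FPKM), and Plau, urokinase (0.842 ± 0.235 to 6.37 ± 3.20 FPKM). Of 25 regulators tested 0 rose and 5 fell, Cebpa, Foxa2 and Nr1h4 among them. Cebpa, which encodes C/EBP alpha, went from 267 ± 41.4 to 78.5 ± 44.0 FPKM (limma adjusted p = 0.0142).

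**Figure D3:**
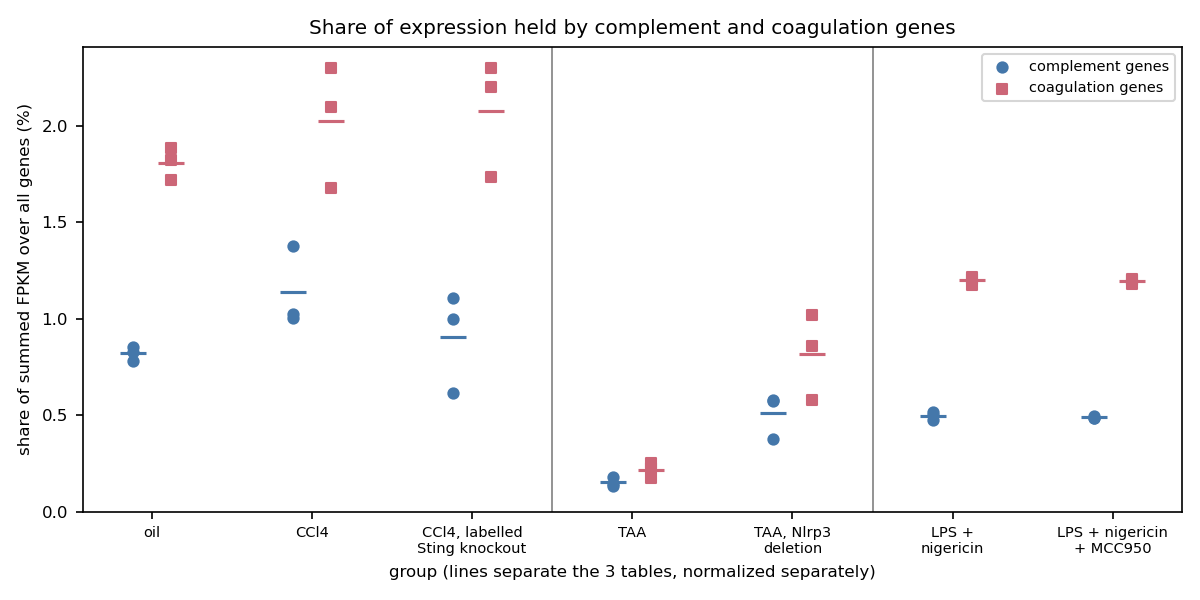
Share of the FPKM of all genes held by the complement and by the coagulation genes in each library (points) with group means (bars), the 3 separately normalized tables divided by lines. Coagulation genes hold the larger share in each group, and both shares are higher in all 3 Nlrp3 deletion libraries than in any wild-type TAA library.

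The libraries labelled Sting knockout were set against wild-type liver, both after CCl4, in a comparison that shares the 3 wild-type CCl4 libraries with the one above. Little separated them: limma called 0% of the 11511 genes, and none of the 35. The median fold change of the 35 was 0.13, beside 0.02 over all genes tested, with 0.05 for complement and 0.26 for coagulation. An unadjusted p under 0.05 was found for 366 of all genes and for 1 of the 35, C7, while edgeR and DESeq2 on recovered reads called 0 genes. Groups did not overlap for 1 higher and 2 lower genes of the 35 (2.86% and 5.71%), against 2.35% and 2.78% of all genes tested.

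C7 was at 1.69, 1.80 and 1.93 FPKM in wild-type CCl4 liver and at 0.736, 0.347 and 0.348 FPKM in the libraries labelled Sting knockout. All 3 labelled libraries lay below every wild-type CCl4 library and every oil library. Its fold change was −0.94 ± 0.19 (limma adjusted p = 0.761), on 82, 92 and 96 reads against 34, 12 and 18. Pros1 was at 32.4, 21.8 and 24.7 FPKM and at 21.2, 12.4 and 20.5 FPKM, the highest labelled value just below the lowest wild-type one (fold change −0.54, limma adjusted p = 0.761).

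Fgb was at 744, 1209 and 1238 FPKM in wild-type CCl4 liver and at 1391, 1494 and 1393 FPKM in the libraries labelled Sting knockout, without overlap. For Fga (1090, 1549 and 1600 against 1969, 1392 and 1644 FPKM) and Fgg (1017, 1604 and 2136 against 2010, 2736 and 1910 FPKM) the groups overlapped. Fold changes of Fgb, Fga and Fgg were 0.46, 0.25 and 0.53, with limma adjusted p of 0.761, 0.805 and 0.761. C8g had the highest fold change of the 35, 0.70, from 104, 137 and 102 FPKM to 169, 364 and 102 FPKM, and the value of 364 FPKM is that of replicate 2. That library lay outside the range of the other 2 of its group for 30 of the 35 genes, highest for 18 and lowest for 12. At each gene the highest and the lowest of 3 libraries lie outside the range of the others, so this count alone does not mark an outlier. Replicate 3 was highest for 4 and lowest for 20, and replicate 1 highest for 13 and lowest for 3. Without replicate 2 the median fold change of the 35 was 0.03, and limma again called 0. Red cell markers moved with the label, at a summed 236 to 976 FPKM in wild-type CCl4 liver and 1703 to 2711 FPKM in the labelled libraries, and their part in these values was not tested.

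**Figure D4:**
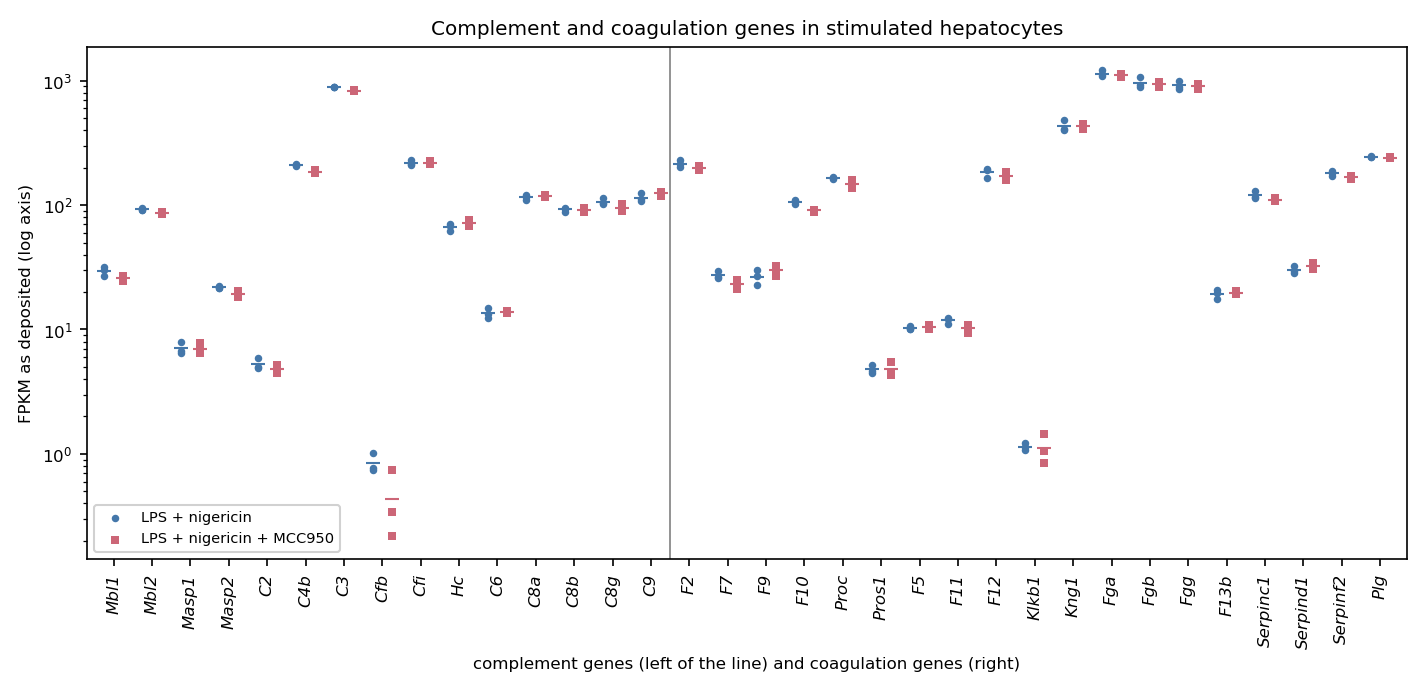
FPKM as deposited (log axis) in each hepatocyte library given LPS and nigericin, without or with MCC950, with bars for the means of 3 libraries. C7 is left out since it was listed at 0 throughout; the points of both groups lie close together at most genes, and Cfb and Klkb1 are the lowest.

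MCC950 was set against no inhibitor in hepatocytes given LPS and nigericin, which asks whether blocking NLRP3 changes these genes. The levels were close to each other: fold changes of the 33 genes tested ran from −0.23 for F7 to 0.17 for F9, with a median of −0.03 beside −0.01 over all genes tested. Limma called 0% of 9835 genes, with 1168 at an unadjusted p under 0.05, of which 5 were among the 33 (C4b, Masp2, F7, F10 and F11). Standard errors were from 0.04 to 0.11 on the log2 scale. Groups did not overlap for 11 lower and 0 higher genes, that is 33.3% and 0% of the 33, against 10.8% and 8.88% of all genes tested. The other 2 genes fell below the mean of 1 FPKM needed to enter: C7 at 0, and Cfb, at 1.03, 0.738 and 0.775 FPKM without and 0.218, 0.736 and 0.340 FPKM with MCC950 (exact permutation p = 0.1, the smallest possible).

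Of the 11, F10 had the smallest p from limma, at 109, 109 and 102 FPKM without and 88.1, 91.9 and 91.8 FPKM with MCC950. The fold change was −0.23 ± 0.05 (limma adjusted p = 0.390). DESeq2 on the recovered reads called F10 lower, as the 1 gene of the 35 among 17 lower and 6 higher genes in all, and edgeR called 0. F7 was at 26.5, 29.6 and 25.9 FPKM without and 21.1, 25.0 and 23.1 FPKM with MCC950, and Proc at 164, 167 and 162 and at 137, 159 and 150 FPKM. F11 was at 12.03, 11.1 and 12.3 FPKM without and 10.5, 9.39 and 10.8 FPKM with MCC950. These 4 protease genes were 1.11- to 1.18-fold lower with the inhibitor, and limma called none of them.

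In complement, C3 was at 884, 894 and 894 FPKM without and at 830, 837 and 826 FPKM with MCC950, a gap of 1.07-fold that exceeded the spread within either group. C4b, a form of C4, was at 212, 205 and 209 FPKM without and 181, 193 and 183 FPKM with MCC950. Masp2 was at 21.4, 21.6 and 22.3 and at 18.2, 20.2 and 19.4 FPKM. The lectins were lower as well, Mbl1 at 27.0, 31.8 and 29.8 and at 26.9, 24.5 and 27.0 FPKM, and Mbl2 at 95.2, 91.7 and 91.8 and at 85.4, 87.9 and 88.0 FPKM. The limma adjusted p of these 5 genes was between 0.390 and 0.445.

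Among the inhibitors Serpinc1 was at 131, 116 and 115 FPKM without and 113, 107 and 110 FPKM with MCC950, and Serpinf2 at 188, 183 and 172 and at 163, 172 and 169 FPKM, both without overlap. The fibrinogen chains overlapped and were within 0.05 of no change on the log2 scale (Fga −0.05, Fgb −0.03 and Fgg −0.02). The terminal genes C6, C8a, C8b, C9 and Hc overlapped too. The 35 genes held 1.68 to 1.72% of summed FPKM without and 1.68 to 1.69% with MCC950. Of 13 hepatocyte markers none was called, with summed levels of 47837 to 54373 and 47700 to 50515 FPKM. Their fold change was negative for 12 of the 13, with a median of −0.10, and groups did not overlap for 5 lower and 0 higher markers. The small lower values were thus not particular to the 35. Kupffer cell markers summed to 0.0786 to 0.121 FPKM without and 0.326 to 0.475 FPKM with MCC950, with Vsig4 at 0 throughout.

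**Figure D5:**
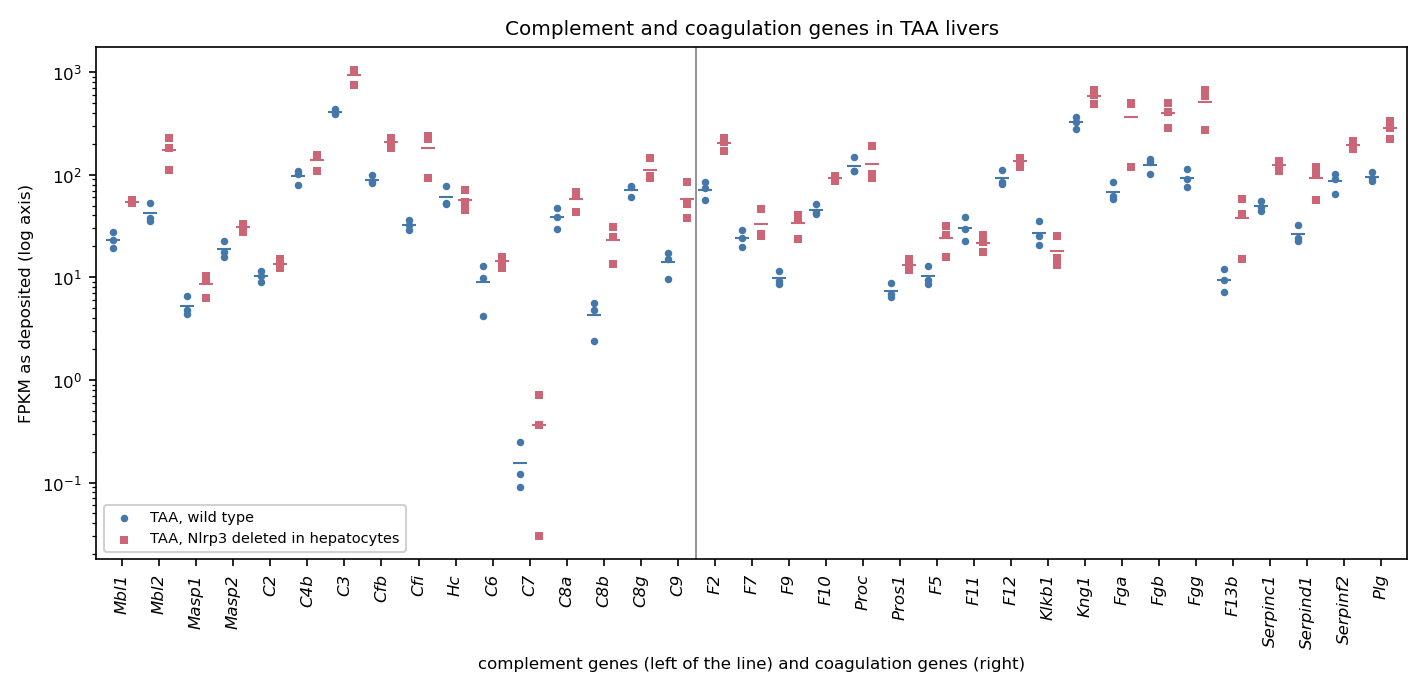
FPKM as deposited (log axis) in each TAA liver library, wild type or with Nlrp3 deleted in hepatocytes, with bars for the means of 3 libraries. For 26 of the 35 genes all 3 deletion libraries lie above all 3 wild-type libraries, and Fga, Fgg, Cfi and F13b show 1 deletion library well below the other 2.

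The Nlrp3 deletion was set against wild type in liver after TAA, which asks what NLRP3 in hepatocytes does to these genes in that model. Many were higher in the deletion livers: Cfi and Fgg by 4.32- and 4.15-fold, and Mbl2, F9, Fgb, Plg and F2 by 2.18- to 3.17-fold. These 7 rose and none of the 35 fell (edgeR quasi-likelihood test, Benjamini-Hochberg adjusted p = 0.0487 for each). That is 20.0% of the 35, while edgeR called 1.37% of 18619 genes higher and 0.36% lower. By branch 2 of 16 complement and 5 of 19 coagulation genes rose. The fold change was positive for 31 of the 35, with a median of 0.81 on the log2 scale (0.58 for complement, 0.85 for coagulation) beside −0.04 over all genes tested. Deposited FPKM of the groups did not overlap for 26 higher and 0 lower genes, 74.3% and 0% of the 35, against 27.8% and 6.68% of all genes tested. The fold changes came from normalized counts, whereas on log2(FPKM + 1) the median of all genes was 0.33. The FPKM values printed here therefore lean higher in deletion liver than the fold changes do.

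Cfi was at 35.9, 28.6 and 32.6 FPKM in wild-type liver and at 93.4, 220 and 237 FPKM in deletion liver. All deletion values lay above the wild-type range, replicate 1 nearest to it, and the fold change from counts was 2.11 ± 0.33 (SE), 4.32-fold. Mbl2 was at 52.6, 37.6 and 35.7 FPKM and at 111, 183 and 227 FPKM, without overlap (1.67 ± 0.28, 3.17-fold). Mbl1 had a fold change of 0.84 and did not pass (edgeR adjusted p = 0.0624), and those of Masp1, Masp2, C2 and C4b were smaller, at 0.34, 0.36, 0.02 and 0.16. C3 was at 434, 395 and 393 FPKM and at 752, 991 and 1039 FPKM, without overlap (fold change 0.80, edgeR adjusted p = 0.0805), and Cfb at 98.9, 83.6 and 85.8 and at 181, 228 and 209 FPKM (0.82, 0.0568).

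The terminal genes differed among themselves. C8b was at 5.67, 4.85 and 2.39 FPKM in wild-type liver and at 13.4, 24.9 and 30.8 FPKM in deletion liver, a fold change of 2.00 ± 0.41 just above the threshold (edgeR adjusted p = 0.0501). C9 was at 15.1, 17.4 and 9.67 FPKM and at 38.0, 52.2 and 83.9 FPKM (1.62 ± 0.38, adjusted p = 0.0561). C8a and C8g, the partners of C8b in 1 complex, had fold changes of 0.21 and 0.27, and C6 of 0.27. C7 was low in both groups, at 0.25, 0.12 and 0.09 FPKM and at 0.03, 0.71 and 0.36 FPKM. Hc was at 76.6, 51.9 and 53.4 FPKM and at 71.0, 45.5 and 53.9 FPKM, with a fold change of −0.45.

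All 3 fibrinogen chains were higher in the deletion livers, and 2 passed. Fgg was at 90.1, 76.4 and 115 FPKM in wild-type liver and at 271, 672 and 582 FPKM in deletion liver (fold change 2.05 ± 0.33, 4.15-fold). Fgb was at 132, 102 and 141 FPKM and at 286, 499 and 412 FPKM (1.30 ± 0.23, 2.45-fold). Fga was at 61.9, 57.3 and 84.7 FPKM and at 118, 499 and 485 FPKM, and its fold change of 2.03 ± 0.48 did not pass (edgeR adjusted p = 0.0568). Wild-type replicate 3 was the highest wild-type library and deletion replicate 1 the lowest deletion library for all 3 chains. Together the chains held 0.0363 to 0.0571% of summed FPKM in wild-type and 0.146 to 0.449% in deletion liver.

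Of the vitamin K dependent genes F2 was at 84.1, 56.8 and 73.7 FPKM in wild-type liver and at 170, 226 and 207 FPKM in deletion liver (1.13 ± 0.19, 2.18-fold). F9, factor IX, was at 11.4, 9.17 and 8.56 FPKM and at 23.5, 37.7 and 40.5 FPKM (1.41 ± 0.24, 2.66-fold). Neither overlapped. F10, Pros1 and F5 did not overlap either, with fold changes of 0.63, 0.47 and 0.85 that did not pass (edgeR adjusted p = 0.0956, 0.151 and 0.0970). F7 and Proc overlapped, with fold changes of 0.10 and −0.27, and in both deletion replicate 1 held the highest value of the 6 libraries.

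Plg was at 107, 87.2 and 92.3 FPKM in wild-type liver and at 224, 336 and 285 FPKM in deletion liver (1.17 ± 0.21, 2.26-fold). The inhibitors Serpinc1, Serpind1 and Serpinf2 had fold changes of 0.94, 1.41 and 0.81, none overlapped, and each just missed the threshold (edgeR adjusted p = 0.0501, 0.0501 and 0.0543). F13b was at 11.97, 7.13 and 9.42 FPKM and at 14.9, 41.6 and 57.4 FPKM (1.62, adjusted p = 0.0637).

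The fold changes of 2 contact proteases were negative. F11 was at 38.4, 22.5 and 29.4 FPKM in wild-type liver and at 25.6, 22.0 and 17.6 FPKM in deletion liver, and Klkb1 at 35.1, 20.8 and 25.4 and at 25.0, 13.2 and 15.4 FPKM. Both overlapped, with fold changes of −0.81 and −0.93 (edgeR adjusted p = 0.0730 and 0.0986). F12 and Kng1 of the same system had fold changes of 0.19 and 0.48.

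The 7 calls sat at the threshold and did not hold under most changes of the fit. With RLE factors in place of TMM their adjusted p was 0.0506, and 0 of the 35 were called. Without deletion replicate 2 or 3, or wild-type replicate 1, 2 or 3, 0 were called, with adjusted p from 0.0965 to 0.196. Over all genes these fits called no more than 10 in either direction. Without deletion replicate 1 edgeR called 20 higher and 4 lower, the latter F11, Klkb1, Hc and Proc. In that fit it called 3570 higher and 3985 lower among all 19889 genes tested. DESeq2 on all libraries called 19 higher and 2 lower, F11 and Klkb1, with a median of −0.37 over all genes. With limma on the deposited FPKM 21 were called higher and 0 lower, on a scale where the median of all genes was 0.33. The median fold change of the 35 was positive in each of these, from 0.69 to 0.85 with single libraries left out.

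Hepatocyte genes outside the 35 were higher as well. Of 13 hepatocyte markers 3 rose, Ahsg, Rbp4 and Serpina1a, and Alb, albumin, named after its values were seen, was at 5272 ± 378 FPKM in wild-type and 20560 ± 4804 FPKM in deletion liver. The 13 summed to 19170 to 22301 and to 45183 to 48363 FPKM, so their levels, like depth and the mitochondrial share of counts, divided the groups completely. Recruited macrophage markers summed to 101 to 215 FPKM in wild-type and 147 to 452 FPKM in deletion liver, with 0 of 8 called. Sinusoidal endothelium markers summed to 18.3 to 19.9 and to 26.3 to 62.8 FPKM, and no marker of these lists was at 0 in every library of a group. The part of hepatocyte content, RNA quality, depth or the mitochondrial share in the rise of the 7 genes was not tested. With mitochondrial, rRNA and pseudogene counts left out, edgeR called 11 of the 35 higher and 0 lower.

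Of 29 other complement genes tested 1 rose, Cr1l (0.580 ± 0.062 to 2.49 ± 0.92 FPKM), and of 36 other coagulation genes 3 rose. Hrg, which binds plasminogen and heparin, went from 69.6 ± 6.55 to 268 ± 82.9 FPKM, and Cpb2, which slows fibrinolysis, from 28.9 ± 5.93 to 101 ± 21.4 FPKM. Vkorc1, which recycles vitamin K for the clotting factors, went from 38.8 ± 5.99 to 97.6 ± 7.62 FPKM (edgeR adjusted p from 0.0487 to 0.04995 for these genes). Of 26 regulators 1 was called, Il1r1, an interleukin-1 receptor, which fell by 1.43 ± 0.25 (9.71 ± 2.45 to 4.75 ± 0.86 FPKM).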

How the data were processed

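RNA-seq was deposited for 21 libraries in 3 tables. Total RNA was extracted with TRIzol and made into Illumina libraries, per the labels' protocols. The submitters' processing notes name HISAT2 2.2.1, featureCounts 1.5.0-p3 and mm10, with no order of steps. No source used here states the strand setting. Per the file headers, the authors deposited read counts and FPKM per gene for the TAA table, and FPKM with gene lengths, but no counts, for the CCl4 and hepatocyte tables. How the FPKM were scaled is not stated there. FPKM times gene length fell on whole multiples of 1 read in these (within 0.05 of a read for 99.88 to 99.995% of values per library), which gave recovered reads. No column belonged to a sample outside the series (0 columns).

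Counts were tested with edgeR 4.0.16 (quasi-likelihood, TMM factors, filterByExpr), and FPKM with limma 3.58.1 on log2(FPKM + 1) where a gene averaged 1 FPKM or more, in R 4.3.3, so a fold change on that scale understates the change of low genes. The CCl4 table was fitted as 1 model of 3 groups. P-values were adjusted by Benjamini-Hochberg over all genes tested in a comparison, with 0.05 as the threshold. Groups were said not to overlap where each value of one lay above each value of the other in deposited FPKM. The tests were run on simulated counts with known changes, as a check of the code. The outcome is not reported here and is not used as a measure of power. The 35 genes, the other gene lists and the rule for naming genes (each of the 35 by role, and in other lists those past the threshold with the largest change) were chosen with earlier results of these data known. No list was given a test of its own. Some genes of the other lists are not reported here. Alternatives were other pseudocounts, filters, normalizations and tools (DESeq2 1.42.0, and edgeR on recovered reads), leaving out each library, leaving out C4b and Kng1, and a replicate block. Dropping labelled Sting knockout replicate 2 from the fit of CCl4 against oil was added after seeing the data.

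Deviations of same-numbered libraries from their group means correlated at r = 0.225, 0.319 and 0.516 for CCl4 against oil. For the Sting label they correlated at r = 0.189, 0.176 and 0.12, and for MCC950 similarly. The numbers may therefore pair these libraries, which rests on the data alone and not on the labels. The fits reported have no replicate block. Promoters came from the RefSeq table for GRCm38.p6 and exon overlaps from GENCODE M21.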

Additional observations from a re-analysis of the deposited data

How the results depend on the processing

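For CCl4 against oil, 2 of the 35 genes were called lower with no filter and 8 with DESeq2, against 4. Over all genes 516, 1101 and 708 were called lower in these fits. Leaving out 1 oil or wild-type CCl4 library gave 0 to 2, beside 262 to 580 over all genes. Dropping labelled Sting knockout replicate 2, which is outside this contrast and was chosen after seeing the data, gave 8, beside 1198 over all genes. Medians over these fits were −0.62 to −0.34 for the 35, −0.58 to −0.32 for complement and −0.68 to −0.43 for coagulation. For the Sting label, leaving out 1 library gave 0 calls and medians of 0.0344 to 0.245, −0.10 to 0.14 and 0.07 to 0.46. For MCC950 DESeq2 called 1 lower. The complement median, −0.06, was −0.0917 with no filter, −0.0889 with edgeR, −0.0874 with DESeq2 and −0.0261 without C4b and Kng1. Leaving out 1 library gave −0.0641 to −0.0218 for the genes tested, −0.0784 to −0.0392 for complement and −0.0641 to −0.0218 for coagulation. For the Nlrp3 deletion, 0 of the 35 were called higher with RLE factors, 19 with DESeq2 (and 2 lower), 21 with limma on FPKM (medians 1.15 and, for coagulation, 1.18), 13 with no filter and 11 without mitochondrial, rRNA and pseudogene counts, against 7. Without C4b and Kng1 the complement median was 0.80, against 0.58. Leaving out 1 library gave medians of 0.69 to 0.85, 0.40 to 0.69 and 0.83 to 1.00, with 0 to 20 of the 35 called higher and 0 to 4 lower. Over all genes these fits called 0 to 3570 higher and 0 to 3985 lower. The cause of these shifts was not tested.

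The replicate block gave 0 calls higher for the Nlrp3 deletion (edgeR adjusted p = 0.0802 for Cfi, F2, F9, Fgb, Fgg, Mbl2 and Plg) and 5 lower for CCl4 against oil, with Mbl1 added, beside 1045 lower over all genes. It changed no count for the Sting label or MCC950. Same-numbered MCC950 libraries correlated much as those of the Sting label did (r = 0.179, 0.218 and 0.085). Differently numbered ones had r from −0.227 to 0.00834. Numbers did not pair the TAA libraries (r = 0.075, −0.0356 and −0.0242), which share only a number. Low read counts limit C7, with at most 132 reads in any library of the 3 tables. They also limit Cfb outside the TAA table, at no more than 204 reads a library, beside at least 9583 in TAA libraries. The part of the exons that Cfb shares with Gm20547 in this gap was not tested. With 3 libraries a group, a p above the threshold does not show that levels are alike.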

Other observations

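Among other complement and coagulation genes, Itgax and C1qc also rose with CCl4, and these and the genes that follow were picked after their values were seen. Itgax, an integrin chain that binds C3 fragments, was at 0.384 ± 0.150 FPKM with oil and 3.62 ± 0.42 FPKM with CCl4, and C1qc at 31.4 ± 8.99 and 103 ± 65.2 FPKM (SD, n = 3). The plasminogen activator Plat was at 0.0746 ± 0.0302 and 2.23 ± 0.54 FPKM and the urokinase receptor Plaur at 0.295 ± 0.196 and 2.68 ± 0.59 FPKM. F13a1, the catalytic chain of factor XIII, which is known from macrophages and platelets, was at 0.0580 ± 0.0266 and 2.12 ± 1.29 FPKM, and it rose, whereas F13b, the liver-made carrier chain among the 35, was at 123 ± 35.9 and 72.0 ± 23.4 FPKM and did not pass. Fgl1, a fibrinogen-like protein of hepatocytes, rose from 68.4 ± 35.3 to 161 ± 38.5 FPKM.

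Sting1, listed as Tmem173, was itself higher with CCl4 than with oil in wild-type liver, at 1.19 ± 0.29 and 5.33 ± 0.69 FPKM (limma adjusted p = 0.00335). Cebpa was at 78.5 ± 44.0 FPKM in wild-type CCl4 liver and 113 ± 20.0 FPKM in the libraries labelled Sting knockout. After TAA it was at 27.4 ± 1.07 FPKM in wild-type and 76.3 ± 21.1 FPKM in deletion liver, without overlap (edgeR adjusted p = 0.0520).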
